A study of Homo sapiens with 21 samples.

Results

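The genes described here are 33 genes of mitosis, chosen by name: cyclins and their phosphatases, mitotic kinases, spindle checkpoint and kinetochore genes, kinesins, spindle and chromosome proteins, and genes of the anaphase promoting complex pathway. Of them, 32 were measured and tested, among 16614 genes tested in all. CDK1, the kinase that drives entry into mitosis, had no probeset under its own symbol. A set of 14 probesets is annotated CDC2, a name that the gene table lists for 2 symbols, CDK1 and POLD1, so it was not counted as CDK1. POLD1 has a further 32 probesets under its own symbol, while CDK1 has none, so the CDC2 probesets may well be those of CDK1. The median over the 11 kept CDC2 probesets passed no test, with log2 changes of 0.32 at 60 min and -0.13 at 480 min against 0 min.

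The cells were MCF10A, an immortalised and non-tumorigenic line of human mammary epithelial cells, at low passage. All groups were plated without epidermal growth factor (EGF) for 24 h and then starved for 24 h with 1% horse serum. The 0 min cultures were taken at that point, and the other groups received EGF at 20 ng/ml for 20, 40, 60, 120, 240 or 480 min, with 3 biological replicates each and 21 arrays in all. There were no unstimulated arrays at the later times, so an effect of EGF cannot be told apart from one of handling or of time in culture. The measurements are of RNA from whole cultures, in which fewer mitotic cells and less RNA per cell cannot be told apart.

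Mitosis genes are transcribed late in the cell cycle, peak in G2 and M phase, and are shut off as cells leave mitosis or rest outside the cycle. In resting cells the DREAM complex holds many of them silent through the CHR element of their promoters. Many of these promoters also carry CCAAT boxes. B-MYB and FOXM1 activate mitosis genes through the same promoters in G2. EGF leads starved mammary epithelial cells back into G1, and S phase and mitosis follow only many hours later. The cyclins and kinases of the list start mitosis, the kinetochore and checkpoint genes attach chromosomes to the spindle and hold anaphase until they are attached, the kinesins move chromosomes and separate the daughter cells, and the anaphase promoting complex degrades cyclin B and securin to end it.

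A gene's value is the median, over its probesets, of log2(intensity + 16). Changes are differences on that scale, which understates the change of dim genes, and values after ± are limma's standard errors unless an SD is named. Levels of the mitosis genes are not compared with each other, since probes differ in brightness. Probesets of a gene share the same RNA and are not replicates. Counts of probesets that moved in the direction of their gene are descriptions, without a test. Calls rest on limma, with the p-values of each contrast adjusted over all 16614 genes (Benjamini-Hochberg) and a threshold of 0.05. The labels describe the replicates as biological triplicates, and their number limits the precision: the median 95% interval of a mitosis gene's change at 480 min reached 0.333 to either side.

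The arrays had median intensities between 20.44 and 20.56. The stimulus was visible in FOS, an immediate early gene, which rose by 4.32 ± 0.21 at 20 min (adjusted p = 1.1e-11). Of 10 basal mammary markers 9 were measured, each above the median gene, and their mean lay between 10.3 and 10.8 on each array. Of 8 luminal markers measured 4 lay above the median gene, of 9 fibroblast markers 2, and of 5 immune and endothelial markers none, a rough check because probes differ. The luminal mean ran from 6.85 to 7.19 over the arrays and the fibroblast mean from 6.21 to 6.45. Some markers changed at 480 min: GATA3 fell by 1.02 and COL1A1 by 0.75, and KRT18 rose by 0.75, FOXA1 by 0.43, FAP by 0.83, LAMB3 by 0.88 and ITGA6 by 0.75. Their part in the mitosis gene changes was not tested. An index was computed for each array as the median log2 value of probesets with a gene name less the median of those without one. At 0 min it averaged 1.24 ± 0.02 (SD, n = 3), and the averages of the 6 EGF times ran from 1.27 to 1.33. In 7 of 7 times the array with the highest index also had the highest median over the mitosis genes. The 3 arrays of 120 min stood furthest apart: the median deviation of the mitosis genes from their own means was -0.17, 0.05 and 0.34, and 1, 12 and 31 of the 32 genes lay above their mean for that time. The mitosis genes were noisier than most, with a median replicate SD of 0.211 against 0.169 over all genes.

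**Figure D1:**
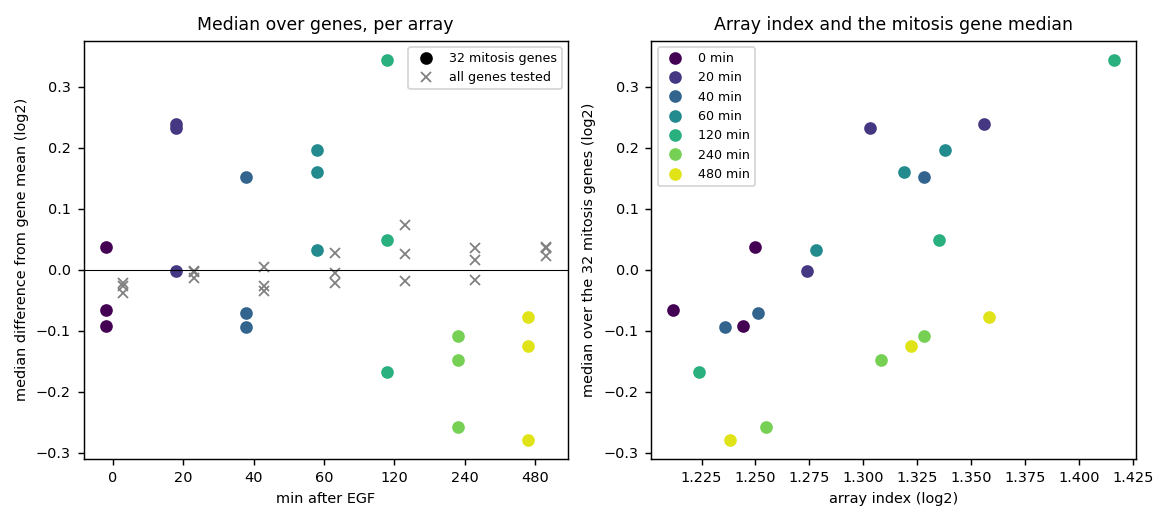
Left, the median difference from the gene's own mean (log2) on each array against min after EGF, for the 32 mitosis genes (filled circles) and for all genes tested (crosses). Right, the mitosis gene median against the array index (log2), coloured by time. The mitosis gene medians of the 240 and 480 min arrays lie between -0.28 and -0.08, those of the 20 to 60 min arrays between -0.09 and 0.24, and the 120 min arrays spread from -0.17 to 0.34.

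Against 0 min, few mitosis genes changed at any time, and their direction was mixed. No mitosis gene passed at 20 or 40 min, PLK4 alone rose at 60 min and CDC20 alone at 120 min. At 240 min PLK4 rose while TOP2A and NUSAP1 fell. At 480 min PLK4 and AURKA rose, and KIF20A, TOP2A, MKI67, NUSAP1 and PTTG1 fell.

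At 20 min, 0 of 32 mitosis genes rose and 0 fell in limma, where 0.897% of all genes rose and 0.0843% fell. Without adjustment 12 of the 32 had a p under 0.05, all higher, where 14.6% of all genes were higher and 5.39% lower at that threshold. The median change was 0.22, against 0.02 over all genes, and became 0.04 with the array index as a covariate. At 40 min 0 of 32 rose and 0 fell, against 1.82% and 0.415% of all genes, with 1 gene higher and 0 lower at an unadjusted p under 0.05. At 60 min 1 rose and 0 fell, against 4.82% and 0.975%. At 120 min 1 rose and 0 fell, against 11.2% and 3.21%. At none of these 4 times did more than 1 of the 32 pass. The median changes of 0.05, 0.21 and 0.095 at 40, 60 and 120 min turned to -0.04, -0.02 and -0.10 with the array index as a covariate.

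At 240 min 1 of 32 mitosis genes rose and 2 fell, against 13.5% and 6.21% of all genes, and the median change was -0.13. At 480 min 2 rose and 5 fell, against 15.5% and 7.11% of all genes. The median change there was -0.16, and 23 of the 32 changes were negative. At an unadjusted p under 0.05, 9 of the 32 were lower and 2 higher at 240 min, against 11.0% and 20.1% of all genes. At that threshold 6 were lower and 4 higher at 480 min, against 11.2% and 22.0%. With adjustment, the share of mitosis genes that fell was 6.25% at 240 min and 15.6% at 480 min. The first share was at the background and the second above it. Leaving out 1 array at a time gave 0 to 4 that fell at 240 min and 1 to 5 at 480 min, so the excess at 480 min rested on single arrays. All 6 comparisons use the same 0 min arrays. They also move with the array index, which was lowest at 0 min: with the index as a covariate 13 mitosis genes fell at 240 min (10% of all genes) and 13 at 480 min (11.5% of all genes). What the index stands for was not tested.

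Between successive times limma called 0 of 32 mitosis genes in each of the 5 intervals, against 0.572%, 0.229%, 3.49%, 1.54% and 1.47% of all genes in either direction. At an unadjusted p under 0.05, 2 were lower from 20 to 40 min (6.81% of all genes), 0 from 40 to 60 min (2.47%), 2 from 60 to 120 min (5.32%) and 7 from 120 to 240 min (5.93%), and 1 was higher from 240 to 480 min (6.07%). The F-test over the 6 contrasts against 0 min called 10 of 32, against 27.5% of all genes. In order of p these were KIF20A, NUSAP1, TOP2A, CENPF, HMMR, CCNB2, PLK4, CDC25C, BUB1B and PTTG1.

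**Figure D2:**
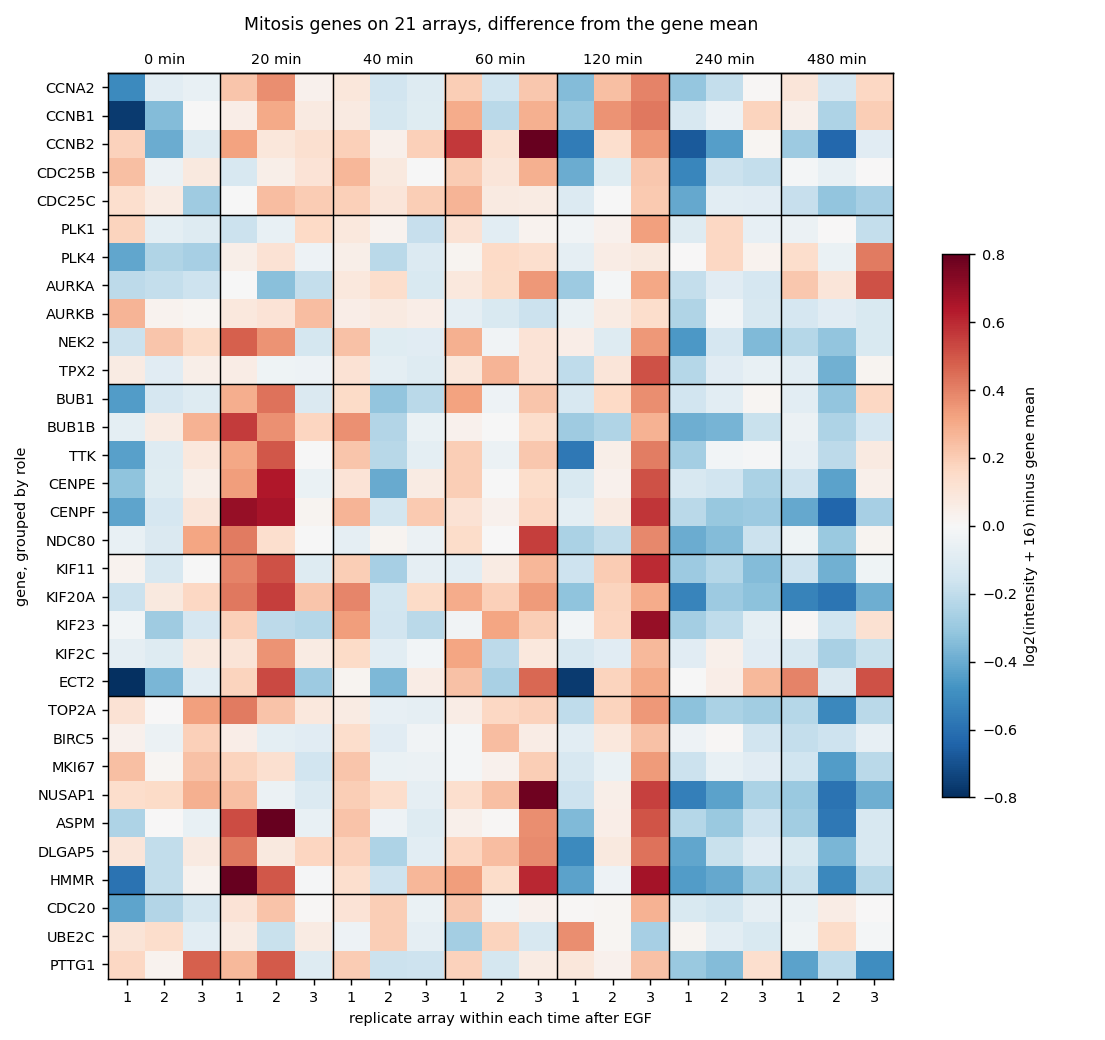
Each row is a mitosis gene, grouped by role, and each column an array, in order of min after EGF with 3 replicates each. Colour gives the log2(intensity + 16) value minus the gene's mean over all 21 arrays, cut off at 0.8 to either side. The columns of 240 and 480 min are mostly blue among the checkpoint, kinesin and spindle genes, the third 120 min array is red in most rows (31 of 32 genes lie above their 120 min mean there), and PLK4 and AURKA are red in the last column.

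More mitosis genes passed in a contrast of the EGF times among themselves. It set the mean of 240 and 480 min (6 arrays, called the late times) against the mean of 20, 40 and 60 min (9 arrays, the early times), in the same limma model, and was added after the values against 0 min had been seen. It does not use the 0 min arrays, except through the estimate of the spread that all 21 arrays share. The array index was close in both sets, 1.298 ± 0.041 (SD, n = 9) early and 1.302 ± 0.046 (SD, n = 6) late. Of 32 mitosis genes 16 fell and 0 rose, while over all genes 12.6% fell and 16.4% rose. The median change was -0.25, against 0.03 over all genes, and 28 of the 32 changes were negative.

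For 8 of the 32 genes every late array lay below every early array, which held for 4.63% of all genes. They were KIF20A, HMMR, CCNB2, NUSAP1, CENPF, ASPM, TOP2A and CDC25C. The other 8 that fell had arrays that overlapped: NEK2, BUB1B, DLGAP5, KIF11, PTTG1, NDC80, CDC25B and MKI67. The 16 that did not pass included PLK1, UBE2C, CCNB1, AURKA, PLK4 and ECT2, whose changes lay between -0.07 and 0.12. With the array index as a covariate 22 fell, against 16.2% of all genes, and leaving out 1 array at a time gave 11 to 17.

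**Figure D3:**
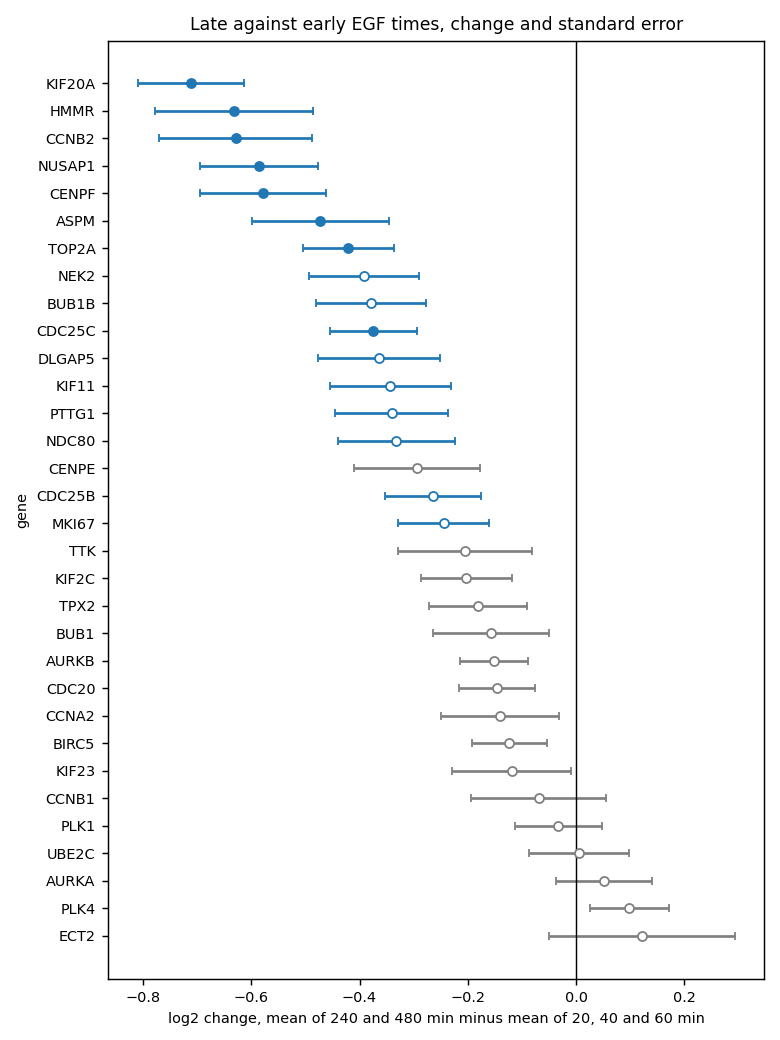
Points give, for each of the 32 mitosis genes, the mean of 240 and 480 min minus the mean of 20, 40 and 60 min on the log2 scale, and bars the standard error. Blue marks an adjusted p under 0.05 and filled points mark genes whose 6 late arrays all lie below their 9 early arrays. KIF20A is lowest at -0.71 and ECT2 highest at 0.12.

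Among the cyclins and CDC25 phosphatases, which turn CDK1 on, 0 of 5 passed at any time against 0 min, and CCNB2, CDC25B and CDC25C fell from the early to the late times. CCNB2, cyclin B2, read 6.76, 6.18 and 6.47 on the 3 arrays of 0 min. It read 6.90, 6.66 and 6.70 at 20 min, 6.77, 6.62 and 6.77 at 40 min, and 7.14, 6.69 and 7.42 at 60 min. It read 6.01, 6.71 and 6.92 at 120 min, 5.90, 6.14 and 6.59 at 240 min, and 6.28, 5.95 and 6.49 at 480 min. The highest late array was just under the lowest early array, while the 0 min arrays overlapped both sets. The late minus early difference was -0.63 ± 0.14 (adjusted p = 0.0016), or 1.55-fold lower.

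CDC25C, a phosphatase that activates CDK1 at mitotic entry, read 5.82, 5.75 and 5.40 at 0 min. It read 5.69, 5.94 and 5.89 at 20 min, 5.88, 5.79 and 5.88 at 40 min, and 5.96, 5.76 and 5.75 at 60 min. It read 5.58, 5.68 and 5.90 at 120 min, 5.28, 5.60 and 5.60 at 240 min, and 5.50, 5.37 and 5.42 at 480 min. The sets of early and late arrays did not overlap, and both 0 and 120 min bridged them. The difference was -0.37 ± 0.08 (adjusted p = 0.0011). CDC25C is dim, and its lowest late array, at 5.28, lay close above the probeset filter of 5.18. CDC25B, a related phosphatase that acts earlier, fell by 0.26 ± 0.09 (adjusted p = 0.027), and the call was lost in 4 of 15 fits without 1 array.

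CCNB1, cyclin B1, had no call: its change against 0 min was between 0.32 and 0.53 at all 6 EGF times, with adjusted p from 0.073 to 0.57. With the array index as a covariate these changes lay between 0.08 and 0.20. Its lowest array was at 0 min, at 7.62. CCNA2, cyclin A2, which works in S and G2 phase, changed by 0.26 ± 0.17 at 480 min (adjusted p = 0.31; -0.01 with the array index as a covariate) and by -0.14 ± 0.11 from early to late (adjusted p = 0.37). In the late minus early contrast CCNB1 stood at -0.07 ± 0.13 (adjusted p = 0.73).

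Among the polo-like, aurora and NEK kinases with TPX2, the gene that activates aurora A on the spindle, PLK4 and AURKA rose at 480 min, and NEK2 alone fell from early to late. PLK4, the kinase that sets centriole duplication, read 5.73, 5.91 and 5.88 at 0 min. It read 6.19, 6.27 and 6.11 at 20 min, 6.20, 5.93 and 6.04 at 40 min, and 6.17, 6.31 and 6.29 at 60 min. It read 6.08, 6.21 and 6.22 at 120 min, 6.15, 6.32 and 6.18 at 240 min, and 6.29, 6.09 and 6.56 at 480 min. All 18 EGF arrays were above all 3 arrays of 0 min. The change was 0.41 ± 0.11 at 60 min (adjusted p = 0.034), 0.37 ± 0.11 at 240 min (adjusted p = 0.024) and 0.47 ± 0.11 at 480 min (adjusted p = 0.004), and 0.33 ± 0.11 at 120 min missed the threshold (adjusted p = 0.058). At 480 min 14 of its 16 probesets were higher. These calls depended on which probesets were kept. With no filter on dim probesets the 480 min change was 0.19 (adjusted p = 0.42), and with a filter at the 75th percentile 0.15 (adjusted p = 0.47). The call at 60 min was lost in each of 6 fits without 1 array. The call at 240 min was kept in 3 of 6 such fits and under 7 of 11 other settings. With the array index as a covariate the PLK4 change was 0.28 at 60 min (adjusted p = 0.13) and 0.27 at 240 min (adjusted p = 0.057). At 480 min it was 0.35 in that fit, and the call held (adjusted p = 0.012).

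AURKA, aurora kinase A of the spindle poles, read 7.22, 7.24 and 7.27 at 0 min. It read 7.43, 7.10 and 7.24 at 20 min, 7.51, 7.57 and 7.31 at 40 min, and 7.52, 7.58 and 7.78 at 60 min. It read 7.14, 7.41 and 7.74 at 120 min, 7.24, 7.34 and 7.29 at 240 min, and 7.65, 7.53 and 7.94 at 480 min. The 0 min arrays were nearly equal, the 40, 60 and 480 min arrays all lay above them, and those of 20, 120 and 240 min overlapped them. The change at 480 min was 0.46 ± 0.14 (adjusted p = 0.017), with 9 of 9 probesets higher. Without the third 480 min array it was 0.35 (adjusted p = 0.12), and with no filter on dim probesets 0.18 (adjusted p = 0.6). With the array index as a covariate it was 0.32 (adjusted p = 0.059), and the call held under 7 of 11 other settings.

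PLK1, the polo-like kinase of mitotic entry and cytokinesis, changed by between -0.08 and 0.11 against 0 min, with F-test adjusted p = 0.89. AURKB, aurora kinase B of the centromere, changed by -0.22 ± 0.10 at 480 min (adjusted p = 0.11). NEK2, a centrosome kinase, fell by 0.39 ± 0.10 from early to late (adjusted p = 0.0056), but with no filter on dim probesets the change was -0.21 (adjusted p = 0.16). Its late arrays ranged from 5.86 to 6.20 and its early arrays from 6.18 to 6.80, so they overlapped by a narrow margin.

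Among the 6 checkpoint and kinetochore genes, 0 passed at any time against 0 min, and CENPF, BUB1B and NDC80 fell from early to late. CENPF, a large protein of the outer kinetochore, read 6.55, 6.83 and 7.06 at 0 min. It read 7.67, 7.63 and 6.99 at 20 min, 7.24, 6.82 and 7.18 at 40 min, and 7.08, 7.002 and 7.13 at 60 min. It read 6.89, 7.04 and 7.54 at 120 min, 6.75, 6.67 and 6.68 at 240 min, and 6.56, 6.33 and 6.70 at 480 min. The first and second 20 min arrays were the highest of the series, and all late arrays lay below all early ones. The change at 20 min was 0.61 ± 0.18 (adjusted p = 0.11), and the late minus early difference was -0.58 ± 0.12 (adjusted p = 0.00056), or 1.49-fold lower. All 32 of its probesets were lower late than early.

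BUB1B, the checkpoint kinase-like protein BUBR1, read 5.86, 6.01 and 6.22 at 0 min. It read 6.50, 6.31 and 6.11 at 20 min, 6.31, 5.71 and 5.89 at 40 min, and 5.98, 5.94 and 6.09 at 60 min. It read 5.66, 5.70 and 6.22 at 120 min, 5.55, 5.57 and 5.76 at 240 min, and 5.89, 5.70 and 5.81 at 480 min. The 240 min arrays lay below the 0 min ones, but 2 of the 3 arrays of 40 min lay within the late range. It fell by 0.38 ± 0.10 from early to late (adjusted p = 0.0066). The change of -0.40 ± 0.16 at 240 min missed the threshold (adjusted p = 0.076).

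NDC80, which binds microtubules at the kinetochore, fell by 0.33 ± 0.11 from early to late (adjusted p = 0.024), and the call was lost in 5 of 15 fits without 1 array. CENPE, a kinetochore motor, changed by -0.29 ± 0.12 (adjusted p = 0.063). BUB1 and TTK, kinases of the checkpoint, changed by -0.16 ± 0.11 (adjusted p = 0.3) and -0.21 ± 0.12 (adjusted p = 0.24). At 20 min the 6 genes of this group lay between 0.14 and 0.61 above 0 min, with none called and 4 at an unadjusted p under 0.05, a threshold passed upward by 14.6% of all genes. With the array index as a covariate the 6 changes lay between -0.07 and 0.36.

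Among the kinesins and the cytokinesis gene ECT2, KIF20A and KIF11 fell from early to late, and KIF20A also fell at 480 min. KIF20A, also called MKLP2, carries the aurora B complex to the spindle midzone. It read 6.92, 7.18 and 7.26 at 0 min. It read 7.52, 7.65 and 7.32 at 20 min, 7.49, 6.95 and 7.25 at 40 min, and 7.39, 7.29 and 7.44 at 60 min. It read 6.78, 7.27 and 7.39 at 120 min, 6.57, 6.81 and 6.77 at 240 min, and 6.56, 6.52 and 6.70 at 480 min. The 6 late arrays lay below every array of 0, 20, 40 and 60 min, and the first 120 min array lay among them. The change was -0.40 ± 0.15 at 240 min (adjusted p = 0.065) and -0.53 ± 0.15 at 480 min (adjusted p = 0.015). From early to late it fell by 0.71 ± 0.10 (adjusted p = 7.1e-06), or 1.64-fold, with all 19 probesets lower. This call held in all 15 fits without 1 array, whereas the 480 min call was lost in 3 of 6.

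KIF11, the motor that pushes spindle poles apart, fell by 0.34 ± 0.11 from early to late (adjusted p = 0.024), a call lost in 4 of 15 fits without 1 array. KIF2C, which takes microtubules apart at centromeres, changed by -0.20 ± 0.08 (adjusted p = 0.077). KIF23, a kinesin of the midbody, changed by -0.12 ± 0.11 (adjusted p = 0.46). ECT2, the exchange factor that turns on RhoA for the cleavage furrow, was in the other direction, at 0.73 ± 0.27 at 480 min, and did not pass (adjusted p = 0.053). With the array index as a covariate it was 0.30. Its replicate SD was 0.382, the largest of the 32 genes.

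Among the 7 spindle and chromosome proteins, NUSAP1 and TOP2A fell at 240 and 480 min, MKI67 fell at 480 min, and 6 of 7 fell from early to late. NUSAP1, which bundles microtubules around chromosomes, read 7.21, 7.22 and 7.35 at 0 min. It read 7.31, 7.02 and 6.96 at 20 min, 7.26, 7.21 and 6.99 at 40 min, and 7.20, 7.31 and 7.85 at 60 min. It read 6.90, 7.11 and 7.61 at 120 min, 6.52, 6.64 and 6.81 at 240 min, and 6.77, 6.48 and 6.68 at 480 min. All late arrays were below all 15 other arrays. The change was -0.60 ± 0.17 at 240 min (adjusted p = 0.014) and -0.62 ± 0.17 at 480 min (adjusted p = 0.01), or 1.54-fold lower. From early to late it was -0.59 ± 0.11 (adjusted p = 0.00026), with 14 of 14 probesets lower. The 480 min call held in all 6 fits without 1 array and under the 11 other settings.

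TOP2A, the topoisomerase that untangles sister chromatids, read 7.50, 7.39 and 7.72 at 0 min. It read 7.80, 7.61 and 7.47 at 20 min, 7.45, 7.32 and 7.31 at 40 min, and 7.44, 7.55 and 7.57 at 60 min. It read 7.18, 7.56 and 7.73 at 120 min, 7.06, 7.13 and 7.11 at 240 min, and 7.15, 6.87 and 7.17 at 480 min. Here too the 6 late arrays were the lowest of the series. The change was -0.44 ± 0.13 at 240 min (adjusted p = 0.021) and -0.47 ± 0.13 at 480 min (adjusted p = 0.012). From early to late it was -0.42 ± 0.08 (adjusted p = 0.00055), and 42 of 42 probesets were lower.

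HMMR, which organises spindle poles, read 5.48, 5.87 and 6.10 at 0 min. It read 6.87, 6.57 and 6.06 at 20 min, 6.20, 5.90 and 6.33 at 40 min, and 6.40, 6.21 and 6.67 at 60 min. It read 5.64, 6.03 and 6.74 at 120 min, 5.62, 5.66 and 5.79 at 240 min, and 5.89, 5.55 and 5.85 at 480 min. The late arrays lay within the range of 0 min and below the early arrays, whose lowest, at 40 min, was above the highest late array by a narrow margin. It changed by 0.68 ± 0.23 at 20 min (adjusted p = 0.14) and by -0.05 ± 0.23 at 480 min (adjusted p = 0.91), and fell by 0.63 ± 0.15 from early to late (adjusted p = 0.0021).

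MKI67, the Ki-67 protein that coats mitotic chromosomes and serves as a marker of cycling cells, read 7.24, 7.01 and 7.23 at 0 min. It read 6.83, 6.55 and 6.78 at 480 min, below all 3 of them. The change was -0.44 ± 0.13 (adjusted p = 0.018). It was lost with the mean over probesets in place of the median (-0.28, adjusted p = 0.071), with a filter at the 75th percentile (-0.33, adjusted p = 0.055) and in 3 of 6 fits without 1 array. Its early to late change was -0.24 ± 0.08 (adjusted p = 0.033), a call kept in 8 of 15 fits without 1 array. ASPM, a spindle pole protein, ranged from 6.08 to 6.98 on the early arrays with a median of 6.23, and from 5.62 to 6.06 on the late arrays with a median of 5.93. It fell by 0.47 ± 0.13 (adjusted p = 0.007) with 39 of 39 probesets lower. DLGAP5, which stabilises kinetochore fibres, fell by 0.36 ± 0.11 (adjusted p = 0.018), but with no filter on dim probesets the change was -0.28 (adjusted p = 0.11). BIRC5, survivin of the aurora B complex, changed by -0.12 ± 0.07 (adjusted p = 0.2).

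Of the 3 genes of the anaphase promoting complex pathway PTTG1 fell at 480 min, CDC20 rose at 120 min and UBE2C passed no test. PTTG1, securin, which holds separase until anaphase, read 6.64, 6.50 and 6.95 at 0 min. It read 6.73, 6.97 and 6.37 at 20 min, 6.67, 6.30 and 6.31 at 40 min, and 6.66, 6.33 and 6.54 at 60 min. It read 6.56, 6.51 and 6.71 at 120 min, 6.17, 6.12 and 6.61 at 240 min, and 6.04, 6.27 and 5.98 at 480 min. The 480 min arrays were below all arrays up to 120 min, and the third 240 min array lay among the earlier ones. It fell by 0.60 ± 0.16 at 480 min (adjusted p = 0.01), or 1.51-fold. From early to late it fell by 0.34 ± 0.10 (adjusted p = 0.017). Its value rests on 7 probesets, and near-identical copies of the gene (PTTG2, PTTG3P) could share their signal.

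CDC20, the activator that the checkpoint holds back, read 7.05, 7.24 and 7.33 at 0 min and 7.48, 7.49 and 7.76 at 120 min. All 18 EGF arrays were above the 3 arrays of 0 min, those of 240 min by a narrow margin. The change at 120 min was 0.37 ± 0.11 (adjusted p = 0.024), and those at 20, 40, 60 and 480 min were 0.38, 0.35, 0.34 and 0.27, with adjusted p of 0.096, 0.11, 0.068 and 0.079. The 120 min call was lost under 6 of 10 other settings, the array index among them (0.28, adjusted p = 0.1). UBE2C, the ubiquitin-conjugating enzyme of the complex, changed by between -0.13 and -0.01 against 0 min (F-test adjusted p = 0.96), and by between 0.06 and 0.24 with the array index as a covariate.

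**Figure D4:**
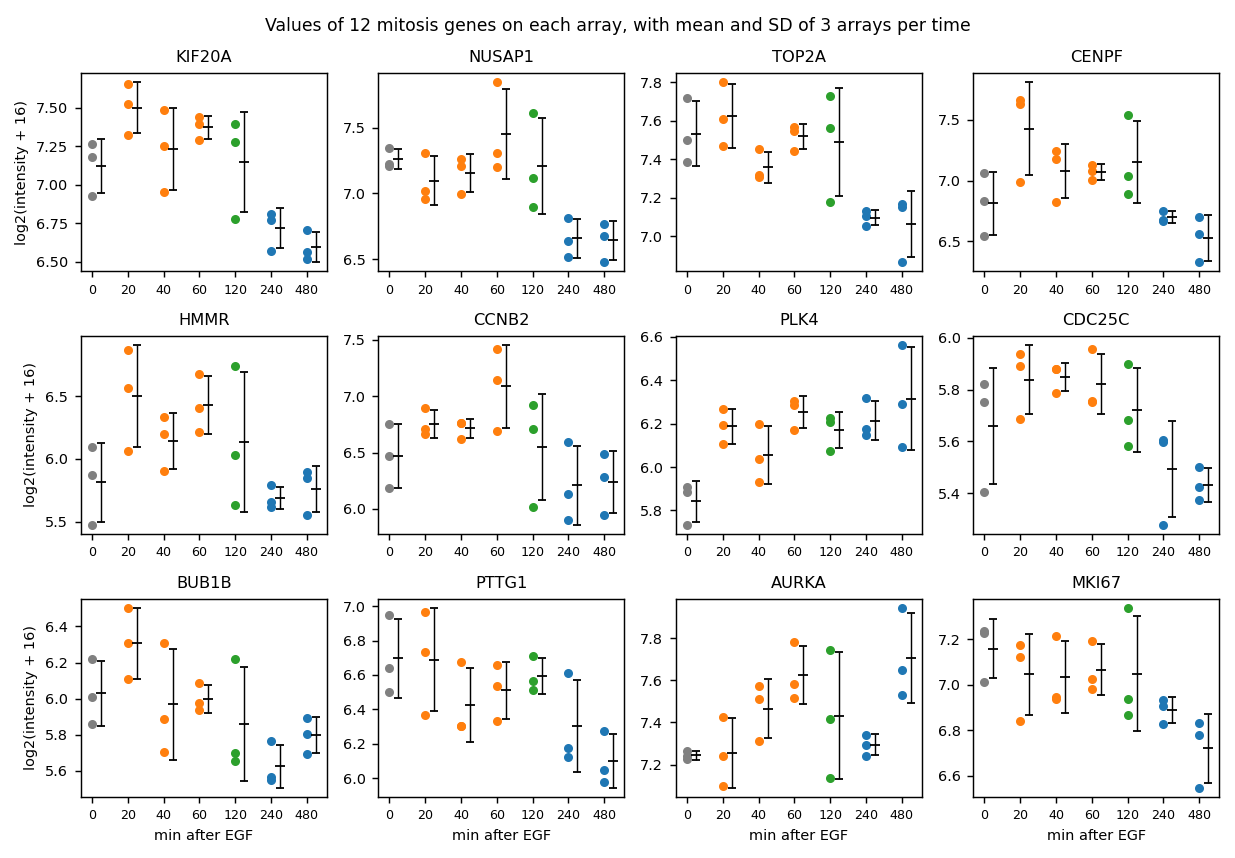
Each panel shows a gene's log2(intensity + 16) value on every array against min after EGF, with the mean and SD (n = 3) of each time beside the points. Orange marks the early times, blue the late times, grey 0 min and green 120 min. KIF20A, NUSAP1 and TOP2A are lowest at 240 and 480 min, HMMR returns to its 0 min range, and PLK4 lies above 0 min at every EGF time.

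Many mitosis genes share the promoter elements named above, and their promoters were searched for the letters of those elements. RefSeq promoter windows of assembly GRCh38.p14, 300 bases from 250 before the start, were matched by symbol for 27 of the 32 genes. The CHR core was taken as TTTGAA and the CCAAT box as CCAAT, on both strands. A gene with several windows was counted when any of them held the letters. Shares are thus of genes and not of single promoters, and genes with more starts had more chances to match. The CHR letters stood in 17 of the 27 (63.0%), against 18.2% of the 27305 genes in the table. CCAAT stood in 23 (85.2%), against 39.7%, and both in the same window in 14 (51.9%), against 7.26%. E2F-like letters (TTGGCGC, which can overlap a CCAAT box on the opposite strand, or its variants TTCCCGC and TTCGCGC, or TTGCCGC) stood in 8 (29.6%), against 15.3%. All 16 genes that fell from early to late had a window, and 12 of them held the CHR letters, as did 5 of 11 of those that did not pass. That difference was not tested. A match is a description of the letters and not evidence of a bound factor.

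The 200 bases before the start are shown for 7 of the 8 genes whose late arrays all lay below their early arrays, those with a single start in the table, to let the spacing of the elements be compared. The choice was made after their values were seen. Capitals mark CHR and CCAAT letters on either strand, and each sequence runs 5′ to 3′ on the gene's own strand. In order they lie at chr15:59104946-59105145 (plus strand), chr1:214602995-214603194 (plus), chr5:138178912-138179111 (plus), chr17:40417897-40418096 (minus), chr15:41332681-41332880 (plus), chr1:197146670-197146869 (minus) and chr5:163460432-163460631 (plus).
CCNB2: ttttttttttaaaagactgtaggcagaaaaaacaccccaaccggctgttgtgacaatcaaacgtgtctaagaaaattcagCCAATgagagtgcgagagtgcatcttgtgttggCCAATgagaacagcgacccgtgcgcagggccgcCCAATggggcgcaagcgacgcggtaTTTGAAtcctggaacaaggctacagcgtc
CENPF: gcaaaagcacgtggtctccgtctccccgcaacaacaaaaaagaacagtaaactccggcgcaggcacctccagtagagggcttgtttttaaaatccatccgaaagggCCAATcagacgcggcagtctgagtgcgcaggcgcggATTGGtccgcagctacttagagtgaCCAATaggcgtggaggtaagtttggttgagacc
KIF20A: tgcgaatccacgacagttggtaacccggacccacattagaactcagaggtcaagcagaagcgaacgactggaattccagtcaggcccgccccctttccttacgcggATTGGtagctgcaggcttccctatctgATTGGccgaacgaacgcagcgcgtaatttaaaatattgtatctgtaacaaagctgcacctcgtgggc
TOP2A: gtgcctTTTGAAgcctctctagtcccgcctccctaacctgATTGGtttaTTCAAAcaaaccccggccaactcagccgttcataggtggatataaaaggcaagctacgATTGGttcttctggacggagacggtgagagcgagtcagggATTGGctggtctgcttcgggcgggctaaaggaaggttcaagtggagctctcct
NUSAP1: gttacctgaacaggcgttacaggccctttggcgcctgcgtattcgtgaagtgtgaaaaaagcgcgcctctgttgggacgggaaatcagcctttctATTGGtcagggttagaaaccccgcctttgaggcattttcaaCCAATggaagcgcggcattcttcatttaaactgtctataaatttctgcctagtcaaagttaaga
ASPM: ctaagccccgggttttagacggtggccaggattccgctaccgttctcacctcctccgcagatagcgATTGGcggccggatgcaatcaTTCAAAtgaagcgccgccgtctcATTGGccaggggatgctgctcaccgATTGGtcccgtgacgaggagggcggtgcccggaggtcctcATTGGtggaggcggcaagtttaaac
HMMR: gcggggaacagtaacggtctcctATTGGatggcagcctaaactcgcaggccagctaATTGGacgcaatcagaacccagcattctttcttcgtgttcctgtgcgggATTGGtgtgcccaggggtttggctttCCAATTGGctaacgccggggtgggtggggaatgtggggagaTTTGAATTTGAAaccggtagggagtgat
Each of the 7 held at least 2 CCAAT matches in these bases, and CCNB2 held 3 of them, spaced at -120, -87 and -54 from the start, followed by the CHR letters at -29. In HMMR a pair of CHR cores stood side by side from -28 to -17, downstream of 5 CCAAT matches of which the last 2 overlap. In CENPF, KIF20A and NUSAP1 the CHR letters were not in the printed bases, and CENPF and NUSAP1 held them elsewhere in the longer window.

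Among other genes of mitosis both falls and rises were found from early to late. Of 104 genes in 6 further lists (kinetochore and centromere, checkpoint and kinase, kinesin, condensin and cohesin, spindle and cytokinesis, anaphase promoting complex), 100 were measured. From early to late 22 fell and 13 rose, against 12.6% and 16.4% of all genes, and at 480 min 5 fell and 12 rose, against 7.11% and 15.5%. The difference from the 32 genes was not tested. The kinesin KIFC1 fell by 0.59 ± 0.08 (adjusted p = 7.2e-06), and the kinetochore gene DSN1 by 0.47 ± 0.08 (adjusted p = 0.00011). NUMA1, which anchors spindle poles, had the largest fall of these lists, by 1.00 ± 0.07 from early to late (adjusted p = 4.2e-10) and by 1.08 ± 0.11 at 480 min (adjusted p = 2.3e-07). TUBB4B, a beta tubulin, rose by 1.00 ± 0.12 at 480 min (adjusted p = 1.5e-06). Of 14 other genes of the anaphase promoting complex, 5 rose at 480 min and ANAPC5 fell, with CDC26 at 0.73 ± 0.13 (adjusted p = 0.00026) and ANAPC10 at 0.95 ± 0.23 (adjusted p = 0.004).

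Of 23 regulators of mitosis gene transcription, 4 rose at 480 min and 0 fell in limma, against 15.5% and 7.11% of all genes, so the number that rose was near the background. All 4 were E2F genes: E2F3 at 0.85 ± 0.12 (adjusted p = 1.6e-05), E2F7 at 0.69 ± 0.10 (adjusted p = 1.8e-05), E2F4 at 0.67 ± 0.11 (adjusted p = 6.7e-05) and E2F5 at 0.79 ± 0.17 (adjusted p = 0.0013). E2F4 and E2F5 are DREAM complex members and E2F7 is a repressor. Between the early and late times 4 of the 23 rose and 6 fell, against 16.4% and 12.6% of all genes. Among those that fell were TFDP2, an E2F partner (-0.54 ± 0.12, adjusted p = 0.0011), and the DREAM subunits LIN52 (-0.26, adjusted p = 0.009) and LIN54 (-0.33, adjusted p = 0.017). FOXM1 and MYBL2, the gene of B-MYB, changed by 0.07 and 0.11 at 480 min (adjusted p of 0.73 and 0.55).

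Of 12 genes that restrain mitotic entry, 5 fell and 2 rose at 480 min, against 7.11% and 15.5% of all genes. CDKN1B, the CDK inhibitor p27, fell by 1.05 ± 0.16 (adjusted p = 5.7e-05), and CDKN1C, p57, by 0.78 ± 0.13 (adjusted p = 0.00012). WEE1, the kinase that keeps CDK1 inactive, rose by 0.63 at 20 min (adjusted p = 0.012) and 0.74 at 40 min (adjusted p = 0.00099), and fell by 0.69 at 120 min (adjusted p = 0.00051). Of 26 genes of G1 and S phase, 11 rose at 480 min and 0 fell in limma, against the same 15.5% and 7.11%, with a median change of 0.35 in place of the -0.16 of the mitosis genes. CCND1, cyclin D1, rose by 0.92 ± 0.12 (adjusted p = 4.2e-06), CDK6 by 1.18 ± 0.17 (adjusted p = 3.5e-05), and CCNE1, cyclin E1, by 0.95 ± 0.15 (adjusted p = 8.6e-05). At 240 min 4 of the 26 rose and 5 fell, against 13.5% and 6.21% of all genes, with a median change of -0.005. From early to late 5 rose and 2 fell, against 16.4% and 12.6% of all genes, numbers near the background, with a median change of 0.06.

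**Figure D5:**
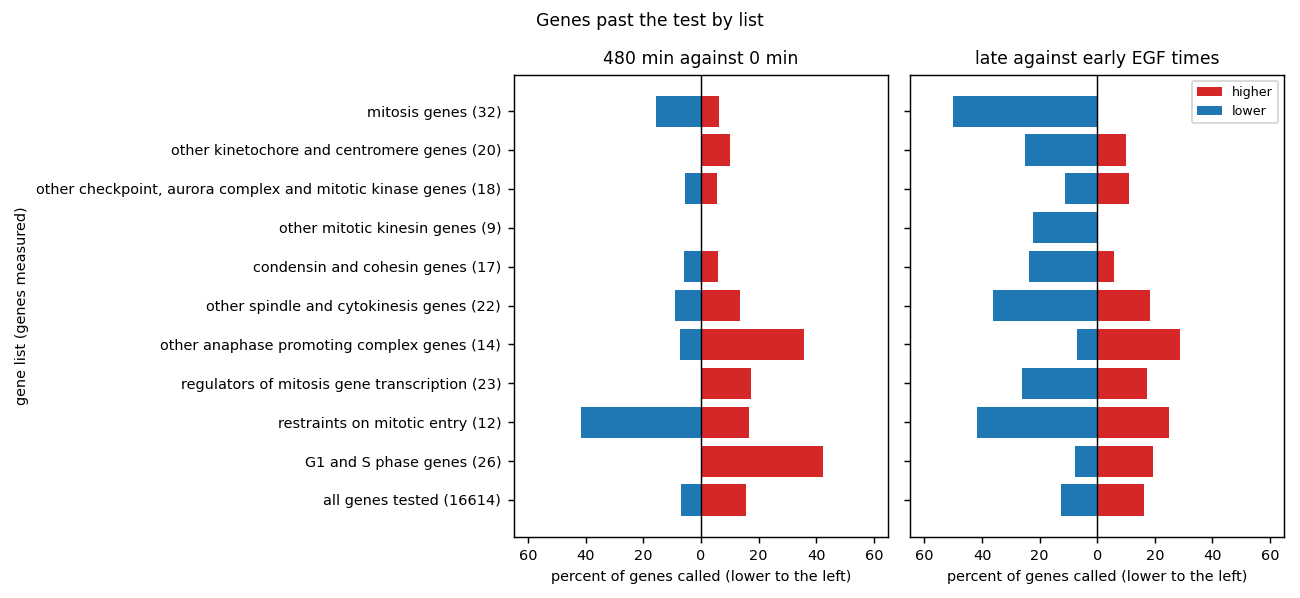
Bars give the percent of measured genes of each list called higher (red, to the right) or lower (blue, to the left) by limma at an adjusted p under 0.05, at 480 min against 0 min and for late against early EGF times. The number of genes measured stands after each name. The mitosis genes have 16 of 32 lower in the second panel, the G1 and S phase genes have 11 of 26 higher in the first, and all genes tested stand at 15.5% higher and 7.11% lower at 480 min.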

How the data were processed

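Expression was measured on Affymetrix arrays, 3 per time at 7 times. Per the labels, the target was made from total RNA after DNase digestion and removal of ribosomal RNA, and labelled with biotin. The deposited values are linear intensities of 1384231 probesets, 1 for each array. The submitters' processing notes list Affymetrix Expression Console 1.1 and PLIER. For their settings nothing is stated in the sources used here. The array medians were nearly equal as deposited, and whether or how the authors normalised between arrays is not stated. No depth exists for arrays, so their number limits the precision.

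The platform annotation paired 354600 probesets with 1 symbol, 14898 with several and left 1014733 unnamed. Of 19497 symbols, 2950 were updated through a unique synonym in the gene table of GRCh38.p14 and 121 were kept as annotated. The deposited intensities were transformed to log2(intensity + 16). Probesets were kept when their mean reached 5.18 (20.2 intensity units), the median over the whole array, which left 658 of 810 mitosis probesets. A gene's value is the median over at least 3 kept single-gene probesets.

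The 21 arrays were fitted together with a mean for each time, using lmFit and eBayes of limma 3.58.1 (R 4.3.3, the data.table package, version 1.17.8), with 14 residual and 7.08 prior degrees of freedom. Tests were two-sided, with Benjamini-Hochberg adjustment within a contrast over all 16614 genes. Promoter windows were matched and searched in Python 3.11.15 with pandas 2.3.3, and figures drawn with matplotlib 3.10.9. The test was checked on simulated data.

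The members, gene lists, tests and settings were chosen with earlier results of these data known. Values on every array are given for genes with an F-test adjusted p under 0.05, which include the lowest p of each role group, and called genes are named per contrast, up to 5 higher and 5 lower. Of other lists up to 4 called genes with the smallest adjusted p are named. All members are named. The array values of AURKA, ASPM, MKI67 and CDC20, and the values of FOS, FOXM1, MYBL2, LIN52, LIN54 and WEE1 at each time, are outside these limits or were picked after values were seen. The other settings were median centring, quantile normalisation, a pseudocount of 1 or of 64, probesets filtered at the 75th percentile or not at all, the probeset mean, only the arrays compared, the array index as a covariate, a replicate block and leaving out each array. The late against early contrast and a fit without the 120 min arrays were added with results known. Samples were not paired by replicate letter in the main fit. Over 63 same-letter pairs the correlation of deviations from the time means ran from -0.541 to 0.565 (median -0.011), with 19 over 0.1. For the third replicates it was 0.565 between 60 and 120 min, 0.562 between 60 and 480 min and -0.541 between 20 and 120 min. Pairs of unlike letters were not compared, so whether arrays of a letter share an effect was not tested.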

Additional observations from a re-analysis of the deposited data

How the results depend on the processing

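No called gene tested changed direction. Changes that passed no test did: with the array index as a covariate 8, 8, 13, 16, 5 and 5 of the 32 changes against 0 min turned sign at 20, 40, 60, 120, 240 and 480 min, and 0 from early to late. Of the genes named as called, 541 results under other settings stayed on their side of the threshold and 76 lost the call in limma. Counts of mitosis genes called moved by over 1.5 times as follows. With median centring 0 rose at 120 min, 9 fell at 240 min and the F-test called 16. With a pseudocount of 1, 2 rose at 120 min, and with 64, 2 rose at 60 min. With no filter on dim probesets 0 rose at 60, 240 or 480 min and the F-test called 6. With a filter at the 75th percentile, which left 30 of the 32 genes, 0 rose and 1 fell at 60 min, 1 fell at 120 min, 0 rose and 6 fell at 240 min, 1 rose and 8 fell at 480 min, and 1 changed from 120 to 240 min. With the mean over probesets 3 rose at 60 min, 2 rose and 1 fell at 120 min, 0 rose and 6 fell at 240 min, and 1 changed in each of the intervals 60 to 120 and 120 to 240 min. With only the arrays compared 0 rose at 60 and 120 min and 4 fell at 240 min. With the array index as a covariate 0 rose at 60, 120 and 240 min, 2 fell at 120 min, 13 fell at 240 min, 1 rose and 13 fell at 480 min, 1 changed from 60 to 120 min and 1 from 240 to 480 min, and the F-test called 19. Without the 120 min arrays 5 fell at 240 min. The cause of these moves was not tested. Leaving out 1 array at a time, with the spread pooled over times, gave 0 to 5 higher at 20 min, 0 to 1 at 60 min, 0 to 5 at 120 min, 0 to 1 higher and 0 to 4 lower at 240 min, 1 to 3 higher and 1 to 5 lower at 480 min, 0 to 4 from 120 to 240 min, 11 to 17 lower from early to late, and 4 to 14 by the F-test. Without the third array of 0 min 1 fell at 480 min, since KIF20A, TOP2A, MKI67 and PTTG1 lost their calls, and 0 fell at 240 min. Without the first array of 240 min 0 fell there too. Without the third 20 min array 5 rose at 20 min, and without the first 120 min array 5 rose at 120 min. With a replicate block 3 rose at 480 min (2 without it), 5 fell there, and 16 fell from early to late. Whether the letters pair the samples was not tested. KIF20A, HMMR, CCNB2, NUSAP1, CENPF, ASPM, TOP2A, CDC25C and BUB1B kept the early to late call in all 15 fits without 1 array. These genes also kept it under every other setting that measured them. With 3 arrays a time, a change at 480 min smaller than about 0.333 lies within the median 95% interval.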
